A study of Mus musculus with 6 samples.

Results

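The interferon-gamma axis was followed here through 9 genes, from the cytokine (Ifng) through its receptor chains (Ifngr1, Ifngr2) and their kinases (Jak1, Jak2) to 4 genes that the signal is known to induce (Irf1, Irf8, Socs1, Batf2). The members were taken by symbol from the deposited expression table, and all 9 were found among its 18848 genes. They were read in all 5749 deposited cells, that is in 19 deposited cell classes of 12 tumours, with lymphocytes (T and NK cells) as the possible source of the cytokine and the other classes as its targets.

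The tumours were PPS-ICBR, a mouse prostate cancer line described as resistant to immune checkpoint blockade, grown in C57Bl6 mice. All mice thus carried the same line, and 4 groups of 3 tumours were profiled by droplet single-cell RNA sequencing after enzymatic dissociation and enrichment of leukocytes on a Percoll gradient. SD mice ate standard chow. BD mice ate chow made up with 1,3-butanediol, a precursor of the ketone body beta-hydroxybutyrate, with water and saccharine. ICB mice ate standard chow and received checkpoint blockade of PD-1 and CTLA-4 (labelled as 0.2 mg, biweekly), and BD+ICB mice received both the butanediol chow and the blockade. From the series title, the question was whether a ketogenic diet alters the response of resistant tumours to blockade. The labels name tumours by hashtag and do not say whether each came from a separate mouse, so every p-value refers to the spread among the sampled tumours, which may be technical.

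Interferon-gamma is secreted mainly by activated T cells and NK cells. It binds a receptor built of the chains IFNGR1, which binds the ligand, and IFNGR2, which passes on the signal; the kinases JAK1 and JAK2 on these chains relay it towards the nucleus, where gamma-activated sites near target genes are read. IRF1 and IRF8 are transcription factors that carry the response further, BATF2 is a transcription factor linked to macrophage activation by the cytokine, and SOCS1 closes a feedback loop by inhibiting the kinases. In tumours the pathway is known for raising antigen presentation and also PD-L1, the ligand of PD-1.

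The sequences upstream of the target genes are shown because the response acts through short motifs there, gamma-activated sites and the response elements of the IRF family. In RefSeq's promoter table for GRCm38.p6, 8 of the 9 members had an entry, with 10 promoters between them; Batf2 was not matched. The windows run from 250 bases before to 50 bases after the transcription start, and the 250 upstream bases of Irf1 (chr11:53769764-53770013, plus strand), Irf8 (chr8:120736108-120736357, plus strand) and Socs1 (chr16:10785537-10785786, minus strand) read as follows, with motif matches in capitals.
Irf1: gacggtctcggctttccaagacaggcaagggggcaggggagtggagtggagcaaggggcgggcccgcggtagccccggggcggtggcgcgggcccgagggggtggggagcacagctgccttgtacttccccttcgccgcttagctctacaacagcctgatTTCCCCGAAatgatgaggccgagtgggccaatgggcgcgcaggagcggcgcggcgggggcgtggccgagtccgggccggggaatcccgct
Irf8: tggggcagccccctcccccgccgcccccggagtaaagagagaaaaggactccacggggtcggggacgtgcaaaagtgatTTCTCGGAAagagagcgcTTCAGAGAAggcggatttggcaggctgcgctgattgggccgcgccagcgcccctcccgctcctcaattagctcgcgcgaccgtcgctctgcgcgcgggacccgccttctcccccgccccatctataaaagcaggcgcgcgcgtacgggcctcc
Socs1: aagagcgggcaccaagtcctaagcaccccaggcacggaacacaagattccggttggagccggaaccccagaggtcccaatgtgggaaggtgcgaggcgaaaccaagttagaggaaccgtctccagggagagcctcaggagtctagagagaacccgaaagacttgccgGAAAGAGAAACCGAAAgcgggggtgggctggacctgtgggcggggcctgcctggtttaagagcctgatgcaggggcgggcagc

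Both strands were searched for the gamma-activated site TTCNNNGAA, which reads the same on either strand, and for an interferon response element written as a pair of GAAA repeats with any 2 bases between them. Irf1 held 1 gamma-activated site, TTCCCCGAA, 90 to 82 bases before the start. Irf8 held 2, TTCTCGGAA at 171 to 163 and TTCAGAGAA at 153 to 145 bases before it. Socs1 held no TTCNNNGAA match but 2 overlapping response elements, GAAAGAGAAA at 83 to 74 and GAAACCGAAA at 77 to 68 bases. Ifng itself had 1 gamma-activated site, TTCAGAGAA, at 249 to 241 bases. Among all 32851 promoters of the same length, 8.30% held TTCNNNGAA and 3.44% held the response element. A match describes these letters only, and no binding was measured here.

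Depth and sample quality bear on all values below. The 12 tumours gave 70 to 913 cells each and 510984 to 13007506 UMIs, with median depths of 4544.5 to 10817 UMIs per cell, and the lowest counts were in BD tumours. Tumour sizes, listed without a unit, were 870 to 2348 in SD, 172 to 203 in BD, 289 to 1116 in ICB and 23 to 90 in BD+ICB. Size thus differed with the diet within each library, and its part was not tested. The samples were run in 2 pooled libraries, SD with BD and ICB with BD+ICB, so that the effect of blockade and the difference between libraries cannot be told apart, whereas the diet was compared within a library. The libraries shared 1931 of 36632 barcodes, and 186 of the 5749 deposited cells, 3 of them T or NK cells, carried a shared barcode. These cells were mainly the deepest ones: they made up 110 of 140 cells of the class named proliferating cancer (Prof_cancer) and 47 of 241 mesenchymal cells, and in Prof_cancer such a barcode had a median of 121724 UMIs in the cell's own library and 1389.5 in the other. Deposited class names were checked against markers: the CD8, regulatory T and neutrophil classes held all their defining markers above 20 CPM, the CD4 class held 1 of 2 CD4 markers but also both CD8 and all 4 innate lymphoid markers, the NK class held all 5 NK markers but also all 7 T cell markers, the 17 cells of the Batf3+ dendritic class held 1 of 4 type 1 dendritic markers, and the Nos2+ dendritic class held 7 of 7 macrophage markers. Prof_cancer held 2 of 4 epithelial and 4 of 5 mesenchymal markers and is called by its deposited name.

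Ifng (ENSMUSG00000055170, chr10:118441046-118445894) was a transcript of lymphocytes. The table held 1306 Ifng UMIs in 360 cells, and 1085 of them (83.1%) lay in the 899 cells of the T and NK classes. CD8 T cells alone held 697 UMIs (53.4%) and CD4 T cells 303 (23.2%), followed by NK cells with 79 and regulatory T cells with 6. In CPM, the count scaled to 1000000 UMIs of that class in that tumour, the median over tumours with at least 10 cells of the class was 141 in CD4 T cells (27.3 to 415, 6 tumours), 114 in CD8 T cells (27.2 to 321, 8 tumours) and 55.5 in NK cells (9.04 to 113, 6 tumours). These 3 ranges overlapped widely, so their order is not fixed by the data.

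Proliferating immune cells (Prof_immune), which also held all 7 T cell markers, had 177 Ifng UMIs (13.6%). Of these, 115 came from 1 cell of the first BD+ICB tumour, so that their median was 5.09 CPM although the range ran from 0 to 799 (9 tumours). All the remaining classes together held 44 UMIs (3.37%) in 29 cells. Of those 29 cells, 18 (62.1%) also held a UMI of a T or NK marker, against 8.98% of the Ifng-negative cells of these classes. In mesenchymal cells, 15 UMIs lay in 4 cells and all 4 held such a marker, against 20.3% of the Ifng-negative mesenchymal cells. Whether these were doublets was not tested.

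Deep cells show a rare transcript more often, so each cell was also thinned to 1000 UMIs before counting. After thinning, 16.6% of CD4 T cells (28 of 169; 95% exact binomial interval 11.3 to 23.1), 13.6% of CD8 T cells (76 of 558; 10.9 to 16.8) and 6.06% of NK cells (8 of 132; 2.65 to 11.6) had an Ifng UMI; without thinning the shares were 42.6%, 38.1% and 18.2%. Classes that should lack the transcript gave the background: 0 of 1387 neutrophils (exact upper bound 0.266%), 2 of 1867 macrophages and 1 of 381 tumour and mesenchymal cells (0.262%). Unthinned, macrophages with a median of 10417 UMIs per cell had an Ifng UMI in 0.74%, and T and NK cells with a median of 6138 UMIs had one in 34.6%. The intervals cover counting error only.

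**Figure D1:**
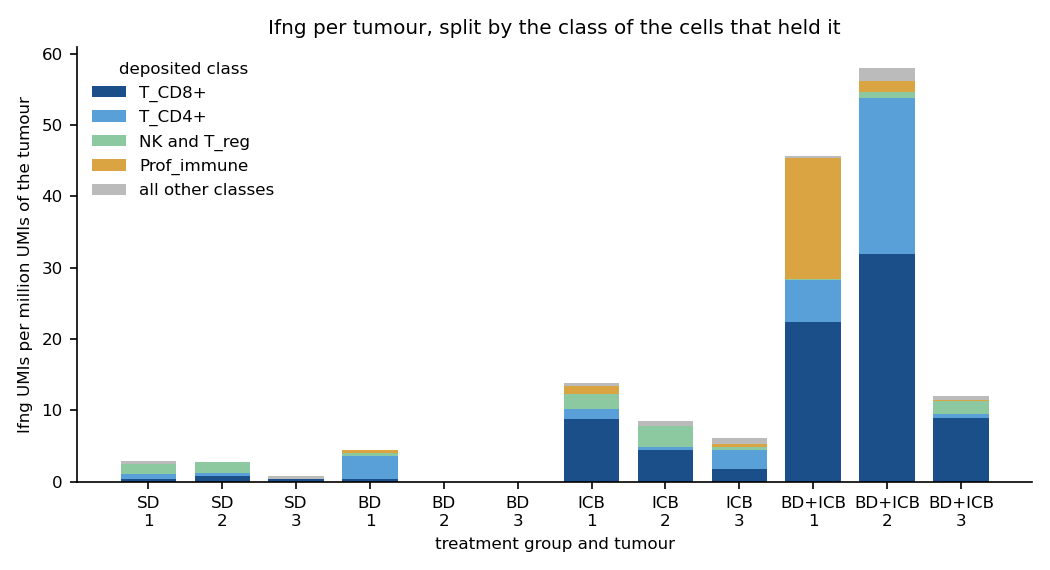
Ifng in CPM over all UMIs of a tumour (y axis) in each of the 12 tumours (x axis, grouped by treatment), with bars stacked by the class that held the counts. CD8 and CD4 T cells fill most of the bar in BD 1 and in every ICB and BD+ICB tumour. They do not fill most of any SD bar, and BD 2 and BD 3 held no Ifng UMI and have no bar. BD+ICB 1 has a large part from proliferating immune cells, and the BD+ICB bars reach 12 to 58.0 CPM where the SD bars stay at 0.836 to 2.90.

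Over all cells of a tumour, Ifng was at 2.90, 2.73 and 0.836 CPM in the SD tumours and at 4.47, 0 and 0 CPM in the BD tumours. It was at 13.8, 8.48 and 6.1 CPM in the ICB tumours and at 45.7, 58.0 and 12 CPM in the BD+ICB tumours. Every tumour given blockade lay above every tumour that was not, and 2 of the 3 BD+ICB tumours lay far above all ICB tumours while the third fell within their range. The 2 zeros in BD rest on small samples, in which 3 counts would be 5.87 and 2.56 CPM. In a sum over all cells, fewer cells of a type and less RNA per cell cannot be told apart; T and NK cells made up 8.65%, 8.27% and 4.61% of the SD tumours, 10.2%, 1.43% and 5.13% of the BD tumours, 21.2%, 12.5% and 9.64% of the ICB tumours and 21.4%, 36.7% and 16.1% of the BD+ICB tumours.

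The diet was tested by exact 2-sided permutation of the diet labels within each library. Ifng CPM averaged 2.16 ± 1.15 (SD, n = 3) on standard chow alone and 1.49 ± 2.58 on butanediol chow alone, a BD minus SD difference of -0.666 CPM (exact p = 0.8) whose direction was not stable (0.0787 CPM without BD 2 or BD 3, and 0.43 ± 1.38 on the log2 scale in edgeR), and 9.47 ± 3.96 in ICB against 38.6 ± 23.8 in BD+ICB, a difference of 29.1 CPM (exact p = 0.2). Within 1 library the smallest p possible is 0.1. The mean of both diet differences was 14.2 CPM (exact p = 0.175, adjusted p = 0.35 over the 2 measures), which did not pass. The share of T and NK cells with an Ifng UMI after thinning was 4.75 ± 4.40% for SD against 1.08 ± 1.86% for BD, and 8.32 ± 3.67% for ICB against 15.4 ± 5.10% for BD+ICB. The mean diet difference in this share was 1.68 percentage points (exact p = 0.58) and turned to -0.381 without thinning and -0.715 after assigning droplets to tumours anew, and the gap between the ICB-library and SD-library diet differences was 10.7 points (exact p = 0.045, adjusted p = 0.09), also not past the threshold. That gap depended on depth, at 0.00278 points after thinning to 500 UMIs and 25.5 points with no thinning. BD tumours 2 and 3 held only 1 and 6 T and NK cells.

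Within T and NK cells, the level in CPM of their own UMIs was 57.3, 51.1 and 19.7 CPM in SD, 57.7 in the only BD tumour with at least 10 such cells, 128, 101 and 94.1 in ICB and 248, 257 and 130.0 in BD+ICB. The BD+ICB and ICB tumours did not overlap, although the third BD+ICB tumour was within 2 CPM of the highest ICB tumour. For 3 tumours against 3, here and below, a lack of overlap alone gives an exact permutation p of 0.1. The share of all genes without overlap was not counted. In edgeR's quasi-likelihood test over 7648 genes, Ifng was higher in BD+ICB than in ICB by 1.00 ± 0.22 on the log2 scale (SE; adjusted p = 0.0363; 212 ± 71.0 against 108 ± 18.1 CPM, n = 3 each). In this comparison 0.876% of genes were called in either direction and 2 genes, Ifng among them, were called higher. The call was lost in DESeq2 (adjusted p = 0.108) and in an edgeR fit of the ICB library's 6 tumours alone (adjusted p = 0.0892). It was also lost on leaving out any of 7 of the 10 tumours in the fit. Log2 differences were 0.83 to 1.37 throughout. ICB against SD gave 1.11 ± 0.38 (edgeR, adjusted p = 0.174).

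Neither T cell class passed on its own in the main fit. With the replicate number as a block, Ifng in CD8 T cells passed for BD+ICB against ICB (1.21 ± 0.21, edgeR adjusted p = 4.26e-05). In CD8 T cells Ifng was at 139, 89.9 and 66.1 CPM in ICB and 321, 226 and 138 CPM in BD+ICB, a log2 difference of 1.15 ± 0.29 (edgeR, adjusted p = 0.144). In CD4 T cells it was at 104, 27.3 and 179 CPM against 212, 415 and 45.5 CPM, with wide overlap (1.27 ± 0.87; edgeR, adjusted p = 0.697). NK cells ran the other way, in 2 tumours of each group with at least 10 such cells. Their Ifng was at 59.6 and 113 CPM in ICB and at 9.04 and 51.4 CPM in BD+ICB, and it was not among the genes tested in this class. The makeup of the lymphocytes moved with the groups: NK cells were on average 46.6% of them in SD, 13.2% in ICB and 8.76% in BD+ICB, and CD8 T cells 38.4%, 63.7% and 68.4%. Their part in the differences was not tested.

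The receptor chains had opposite distributions. Ifngr1 (ENSMUSG00000020009, chr10:19591949-19610229), the ligand-binding chain, was highest in lymphocytes, with median levels of 1227 CPM in NK cells (807 to 1487), 856 CPM in CD8 T cells (681 to 995) and 820.2 CPM in CD4 T cells (706 to 928). Lower levels were found in the residual dendritic class (406 CPM), Trem2+ macrophages (242), M1 macrophages (148) and the 3 neutrophil classes (90.8 to 117), and the lowest medians among classes with several tumours were in mesenchymal cells (71.2) and Prof_cancer (46.8). The CD4 and CD8 ranges overlapped, as did those of the neutrophil classes, but no tumour's lymphocyte value came down to those of macrophages or neutrophils. Ifngr2 (ENSMUSG00000022965, chr16:91547059-91564007), the signalling chain, was high in myeloid cells, at median levels of 196 CPM in Cxcr2+ neutrophils (0 to 405), 175 CPM in Vcan+ monocytes (136 to 200.4) and 163 CPM in Trem2+ macrophages (90.9 to 218). In CD4 T cells it was at 12.1 CPM, in CD8 T cells at 7.87 CPM and in NK cells at a median of 0 (0 to 37.7). The T and NK classes, which held most of the cytokine's transcript, had the highest levels of one receptor chain, with 42.0% of its UMIs, and low levels of the other, with 69 of its 6764 UMIs.

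Ifngr1 in macrophages was at 132, 200.1 and 211 CPM in the SD tumours and 198, 219 and 217 CPM in the BD tumours. With blockade it was at 197, 160.2 and 127 CPM (ICB) and 153, 112 and 107 CPM (BD+ICB). BD+ICB lay below BD without overlap. The log2 difference of -0.74 ± 0.20 passed the test (edgeR, adjusted p = 0.0445; 124 ± 24.9 against 211 ± 11.6 CPM), in a comparison in which 4.47% of genes were called, with 2.2% called lower. It was lost in 10 of 22 alternatives, among them 7 of the 12 in which a tumour was left out. Ifngr1 was the only member called lower in a class or compartment in edgeR. In DESeq2, Ifngr1 in M1 macrophages (-0.87, adjusted p = 0.0457) and Ifngr2 in Cxcr2+ neutrophils (-1.83, adjusted p = 0.0316) were also lower in BD+ICB than in BD. In T and NK cells Ifngr2 was at 12, 25.6 and 16.4 CPM in ICB and 9.27, 8.06 and 3.77 in BD+ICB, from 2 to 15 UMIs a tumour, and did not pass (-1.13 ± 0.48; edgeR, adjusted p = 0.429). Within classes, Ifngr1 in BD+ICB against BD differed by -0.85 ± 0.23 in M1, -0.32 ± 0.25 in Trem2+ and -0.09 ± 0.26 in Mmp+ macrophages, none called (edgeR, adjusted p of 0.0648, 0.594 and 0.924). Macrophage makeup differed strongly between these groups, with M1 cells at an average of 15.5% of macrophages for BD and 56.6% for BD+ICB, against 7.64% for SD and 24.4% for ICB. Trem2+ cells, the macrophage class highest in Ifngr1, were at 49.0% for BD and 15.6% for BD+ICB, against 66.3% for SD and 34.0% for ICB. The part of makeup was not tested.

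The kinases were broadly present. Jak1 (ENSMUSG00000028530, chr4:101151974-101265282), which pairs with IFNGR1, had UMIs in 67.8% of all cells, the largest share of any member, with median levels of 515 CPM in NK cells (379 to 705), 365 in CD8 T cells and 353 in CD4 T cells. Neutrophil classes followed at 229.9 to 306 CPM, and Prof_cancer was lowest among classes with several tumours at 88.7 CPM (83.5 to 104). Among classes with several tumours, Jak2 (ENSMUSG00000024789, chr19:29251803-29313095), which pairs with IFNGR2, was highest in Ifit+ neutrophils (174 CPM, 104 to 259), Vcan+ monocytes (162), Cxcr2+ neutrophils (160.4) and CD4 T cells (148), and lowest in mesenchymal cells (24.9) and Prof_cancer (17). Regulatory T cells had 181 CPM of Jak2 in 1 tumour, and the 17 Batf3+ dendritic cells had 403 CPM when pooled. CD8 T cells and NK cells held about as much of it as each other, at 55.0 and 55.5 CPM. No class or compartment test of either kinase passed in edgeR (0 of 61 for Jak1 and 0 of 59 for Jak2; 3 and 5 at an unadjusted p under 0.05; 0 in DESeq2). Jak1 in T and NK cells differed by 0.04 on the log2 scale between BD+ICB and ICB.

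**Figure D2:**
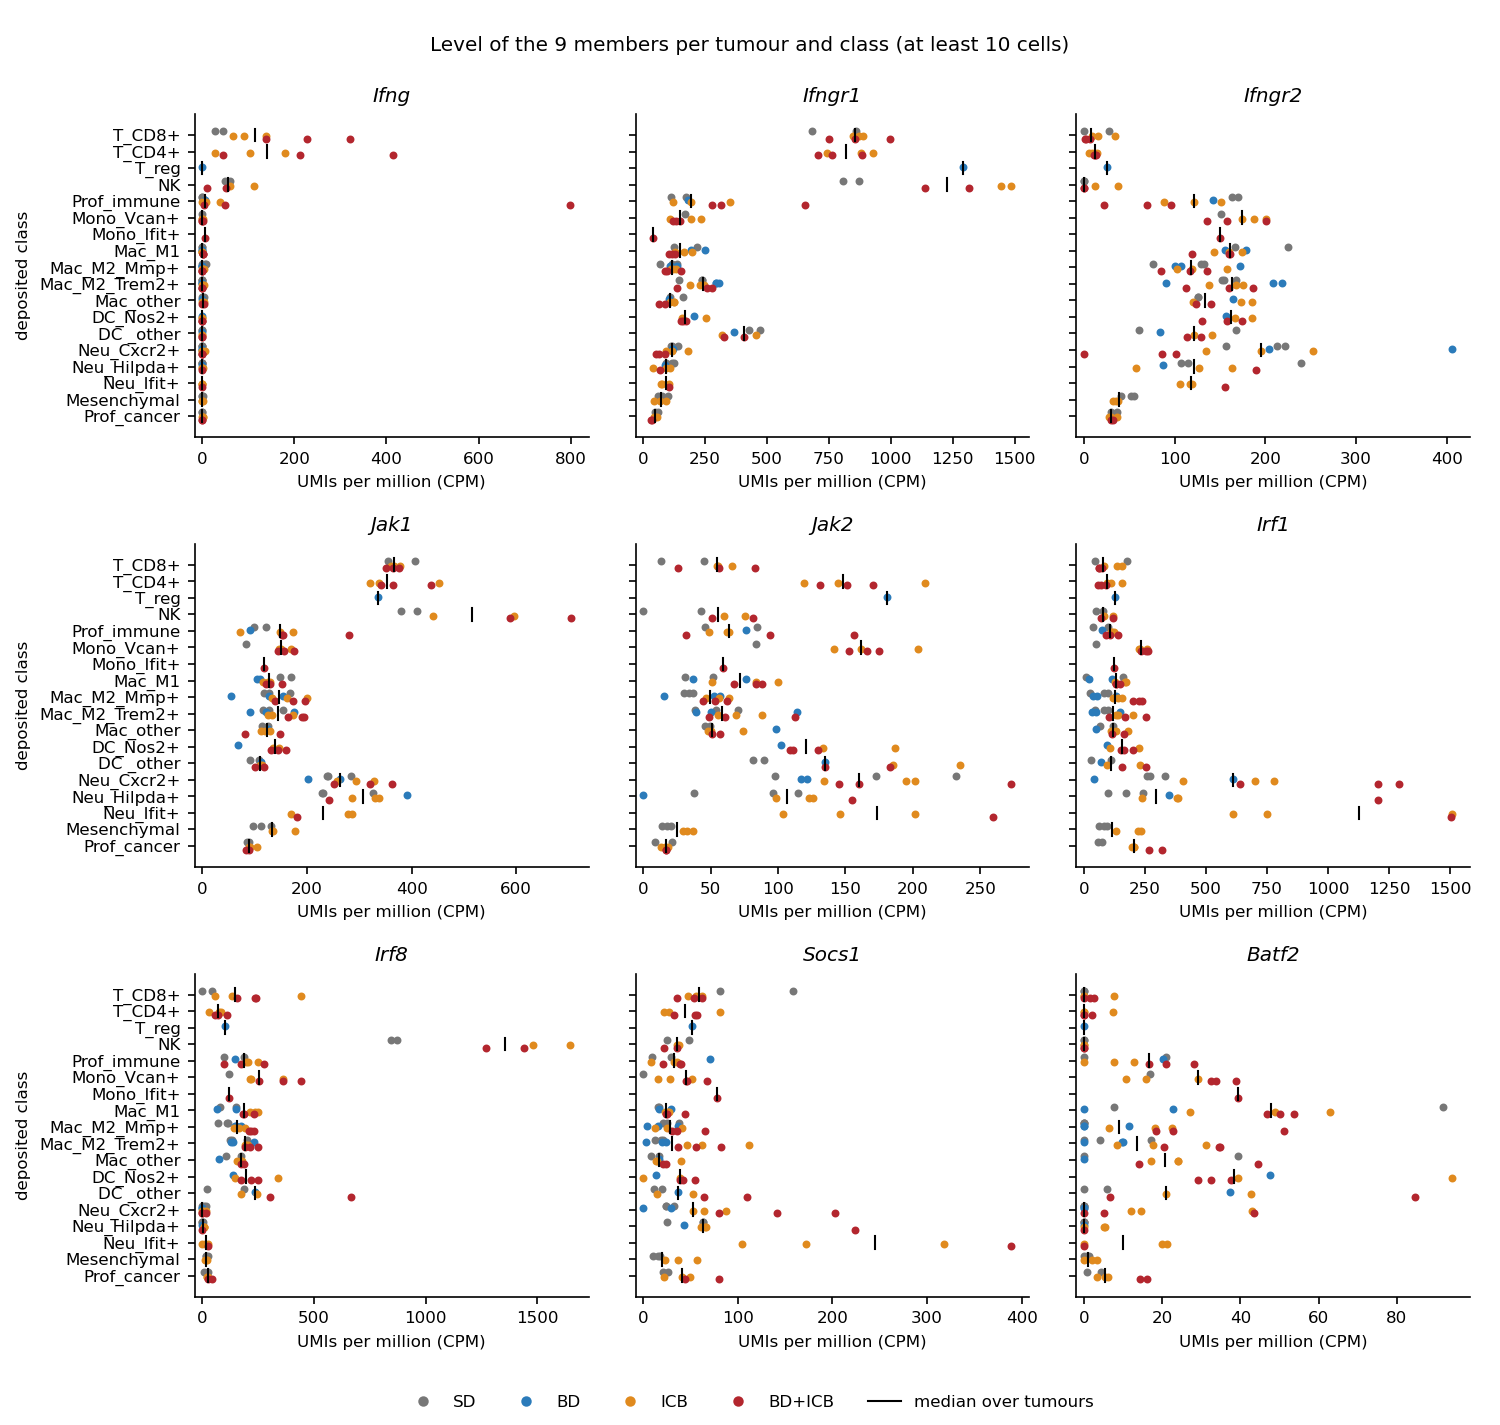
Level of each of the 9 members in CPM (x axis) in the deposited classes (y axis), with a point for each tumour that has at least 10 cells of the class and a bar at the median. Ifng and Ifngr1 peak in the T and NK classes, Ifngr2 in myeloid classes, Irf1 and Socs1 in Ifit+ neutrophils, Irf8 in NK cells and Batf2 in M1 macrophages.

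Irf1 (ENSMUSG00000018899, chr11:53770014-53778374), the early target whose promoter carries the single gamma-activated site shown above, was highest in neutrophils. The median level was 1126 CPM in Ifit+ neutrophils (611 to 1507, 4 tumours), 613 in Cxcr2+ neutrophils (40.5 to 1290.3, 11 tumours) and 294 in Hilpda+ neutrophils (101 to 1206, 8 tumours). Vcan+ monocytes had 233 CPM, Prof_cancer 206 and the macrophage classes with several tumours 119 to 129.9. The cytokine's own sources were lowest, at 92.9 CPM in CD4 T cells, 78.8 in NK cells and 78.2 in CD8 T cells, with overlapping ranges.

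In neutrophils of all classes together, Irf1 was at 258, 261 and 227 CPM in SD and at 538, 445 and 664 CPM in ICB. The groups did not overlap, and the log2 difference of 1.18 ± 0.31 passed (edgeR, adjusted p = 0.0284; 249 ± 18.9 against 549 ± 110.3 CPM); 5.03% of the genes tested in neutrophils were called in this comparison. The call was lost in 8 of 22 alternatives, among them leaving out any SD or ICB tumour. In BD, Irf1 was at 297, 506 and 44.8 CPM, from 9, 29 and 2 UMIs, and in BD+ICB at 583, 1197 and 1245 CPM. Here too the groups did not overlap, and the difference was 1.97 ± 0.40 (edgeR, adjusted p = 0.00381), against a background of 4.41% of genes called. This call was kept in all 21 alternatives run. BD+ICB exceeded ICB by 0.99 ± 0.31, which did not pass (edgeR, adjusted p = 0.16), and 1 BD+ICB tumour lay among the ICB tumours. Both differences compare tumours from different libraries. The neutrophils' summed T cell markers were at 12.6 to 21.8 CPM in SD, 0 in the small BD samples, 10.3 to 54.6 in ICB and 12.7 to 35.4 in BD+ICB. The part of RNA from T cells was not tested. The Ifit+ class, where Irf1 was highest, made up an average of 3.8% of neutrophils for SD, 0% for BD, 12.3% for ICB and 13.1% for BD+ICB. Within Cxcr2+ neutrophils alone, Irf1 differed by 1.18 ± 0.34 for ICB against SD (edgeR, adjusted p = 0.0783) and by 1.83 ± 0.50 for BD+ICB against BD (edgeR, adjusted p = 0.0508; 2 BD tumours), about as much as in all neutrophils but not past the threshold in edgeR; both passed in DESeq2 (adjusted p of 0.0467 and 0.0154).

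**Figure D3:**
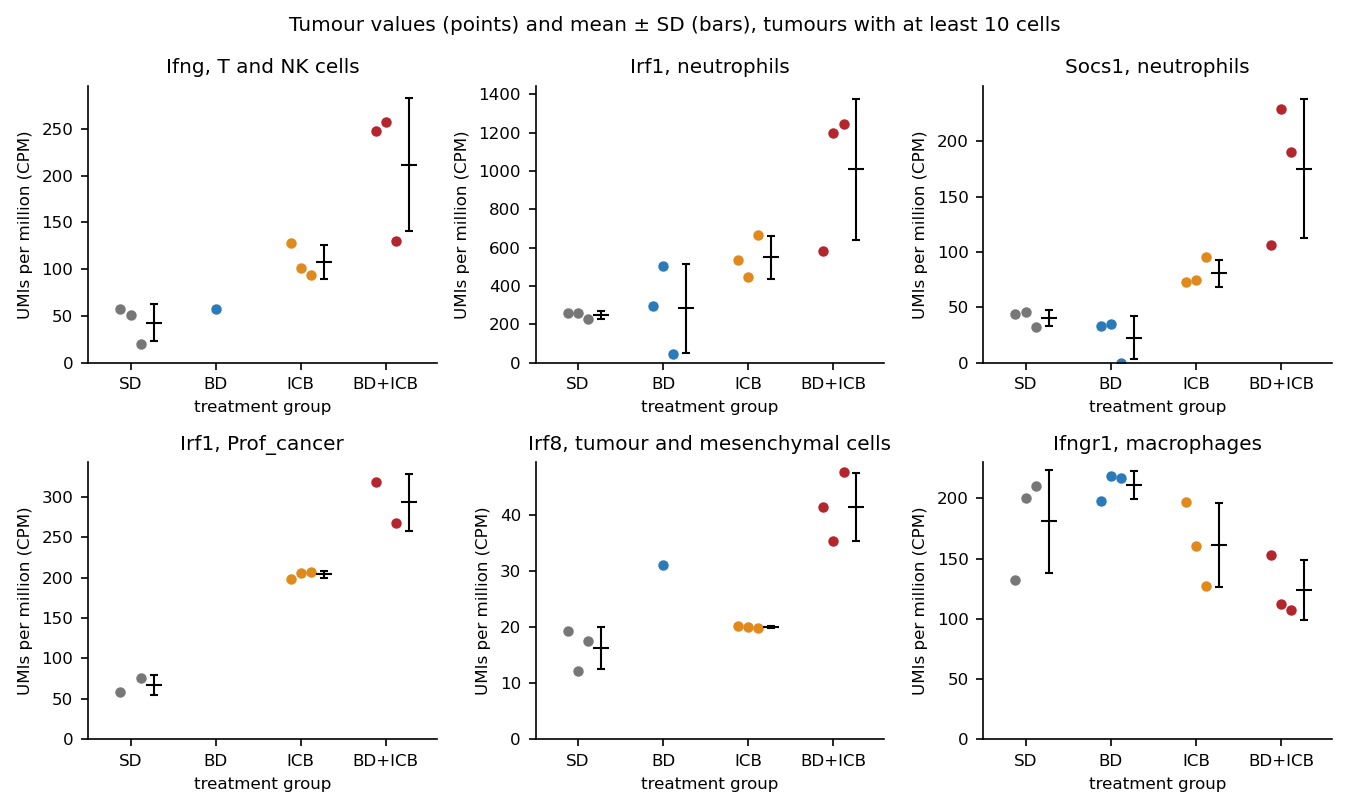
CPM per tumour (points, y axis) with the group mean and SD for 6 results, by treatment (x axis): Ifng in T and NK cells, Irf1 and Socs1 in neutrophils, Irf1 in Prof_cancer, Irf8 in tumour and mesenchymal cells and Ifngr1 in macrophages. Irf1 in neutrophils of the ICB tumours (445 to 664) lies above all SD tumours (227 to 261), and Irf8 in tumour and mesenchymal cells stays near 20 CPM in ICB and at 35.3 to 47.6 CPM in BD+ICB.

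Irf1 was also higher with blockade in Prof_cancer and in mesenchymal cells. In Prof_cancer it was at 58.2 and 75.3 CPM in the 2 SD tumours with at least 10 such cells, at 199, 206 and 207 CPM in ICB and at 318 and 268 CPM in 2 BD+ICB tumours. The 3 groups were separate. ICB exceeded SD by 1.57 ± 0.15 (edgeR, adjusted p = 0.000156), in a comparison in which 0.551% of genes were called, and BD+ICB exceeded ICB by 0.61 ± 0.12 (edgeR, adjusted p = 0.0267), where 1.06% were called. The first call was lost in 1 of 20 alternatives, in which cells were assigned to tumours anew from the hashtag counts (0.83, edgeR, adjusted p = 0.163). The second was lost in 5 of 21. The fit of this class held 7 tumours, so leaving out any other tumour could not change it. The tumours left out for having under 10 cells had 155 CPM in SD and 345 CPM in BD+ICB. Neither call could be refitted without cells of shared barcodes, since 24 SD, 5 ICB and 1 BD+ICB cells remained. Pooled over these, Irf1 was at 112 CPM in SD (119 UMIs; exact Poisson interval 92.7 to 134) and 118 CPM in ICB (21 UMIs; 73.2 to 181), against 63.1 CPM and 204 CPM in the cells with shared barcodes. Genes of the tissue dissociation response also moved with these groups, with a summed level in Prof_cancer of 443 to 599 CPM in SD and 812 to 1636 CPM in ICB; their part was not tested.

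Mesenchymal cells had Irf1 at 60.3, 93.7 and 82.0 CPM in SD and 133, 222 and 235 CPM in ICB (1.19 ± 0.24; edgeR, adjusted p = 0.0243; 4.44% of genes called). BD+ICB tumours had too few of these cells for a test, at 476, 141 and 170.0 CPM from 2, 8 and 6 cells, with 2 of the 3 within the ICB range. For Prof_cancer and mesenchymal cells together, values of 59.3, 118 and 79.1 CPM in SD stood against 179, 213 and 213 in ICB, again without overlap (1.16 ± 0.22; edgeR, adjusted p = 0.0273; 2.81% called; lost in 6 of 22 alternatives, among them without SD 3 or any ICB tumour). The summed macrophage markers in these cells were lower in ICB (78.1 to 391.9 CPM) than in SD (1125 to 2466), and their part was not tested. The mesenchymal call was lost on leaving out any SD tumour or the second ICB tumour and after assigning cells anew. Without the shared barcodes both calls were kept (1.42 and 1.08; edgeR, adjusted p of 0.0126 and 0.0328).

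In macrophages the Irf1 values were 107, 73.1 and 51.7 CPM for SD, 121, 40.3 and 42.4 for BD, 153, 127 and 142 for ICB and 185, 149 and 146 for BD+ICB. Tumours given blockade lay above the others. In the main fit neither ICB against SD (0.82 ± 0.34, edgeR adjusted p = 0.194) nor BD+ICB against BD (1.13 ± 0.36, edgeR adjusted p = 0.107) passed. DESeq2 called the second (adjusted p = 0.0111), and edgeR with a replicate block called both (adjusted p of 0.0202 and 0.00336). Within Mmp+ macrophages alone, BD tumours at 132, 53.8 and 39.4 CPM stood below BD+ICB tumours at 237, 228 and 199.8 CPM, which did pass (1.45 ± 0.32; edgeR, adjusted p = 0.0246; 1.08% of genes called) and was lost in 5 of 21 alternatives, among them leaving out BD 2, BD 3, BD+ICB 1 or BD+ICB 2. In Hilpda+ neutrophils, ICB at 239, 387 and 383 CPM exceeded SD at 101, 241 and 173 CPM by 1.06 ± 0.26 (edgeR, adjusted p = 0.018; 6.02% called), with overlap between the groups; this was lost in 8 of 22 alternatives, DESeq2 among them, and without SD 1, SD 3, ICB 2 or ICB 3. CD8 T cells ran the other way between ICB (82.2, 135 and 156 CPM) and BD+ICB (74.3, 63.1 and 61.4 CPM), without overlap. The difference of -0.81 ± 0.25 did not pass (edgeR, adjusted p = 0.209, with 0.874% of genes called).

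Socs1 (ENSMUSG00000038037, chr16:10783808-10785536), the feedback inhibitor whose promoter holds the 2 response elements, was highest in Ifit+ neutrophils (245 CPM, 104 to 389, 4 tumours). Hilpda+ neutrophils had 62.8 CPM, CD8 T cells 58.9 CPM and Cxcr2+ neutrophils 52.6 CPM, with ranges that overlapped, and the residual macrophage class was lowest at 16.6 CPM. In neutrophils Socs1 was at 43.7, 45.9 and 32.4 CPM in SD, 72.8, 74.3 and 95 in ICB and 106, 229 and 190.0 in BD+ICB. In BD it was at 33.0, 34.9 and 0 CPM, from 1, 2 and 0 UMIs. The SD, ICB and BD+ICB values formed 3 separate steps.

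Socs1 was the only member called for the diet in neutrophils. BD+ICB exceeded ICB by 1.24 ± 0.29 (edgeR, adjusted p = 0.027; 175 ± 62.9 against 80.7 ± 12.4 CPM, n = 3 each), where 0.735% of genes were called. ICB exceeded SD by 1.08 ± 0.31 (edgeR, adjusted p = 0.0342), and BD+ICB exceeded BD by 3.14 ± 0.64 (edgeR, adjusted p = 0.00202), a call kept in all 21 alternatives run. The first of these 3 calls was lost in 8 of 22 alternatives and the second in 8 of 22. The BD+ICB value of the first tumour rests on 6 UMIs. The Ifit+ class, highest in Socs1 too, was at the shares given above; within Cxcr2+ neutrophils the 3 differences were 1.14 ± 0.38, 1.43 ± 0.42 and 3.32 ± 0.99 and did not pass (edgeR, adjusted p of 0.269, 0.0719 and 0.0611). The diet difference in the SD library was not called for any of 6 members tested in neutrophils (0 in edgeR, in DESeq2 and at an unadjusted p under 0.05), where 0 of 3402 genes were called in edgeR (0%), and the gap between the diet differences of the libraries for Socs1 (2.06 ± 0.79) did not pass (edgeR, adjusted p = 0.494).

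In Trem2+ macrophages Socs1 was at 21.5, 19.1 and 12.9 CPM in SD and 46.0, 112 and 62.5 CPM in ICB, without overlap (1.87 ± 0.42; edgeR, adjusted p = 0.0134; 5.72% of genes called). This call was lost without the third SD tumour and after assigning cells anew. In mesenchymal cells it was at 15.7, 10.9 and 17.4 CPM in SD and 37.1, 56.9 and 22.7 CPM in ICB (1.31 ± 0.32; edgeR, adjusted p = 0.0369), which was lost in 7 of 21 alternatives, DESeq2 among them, and without any SD tumour or ICB 2. In macrophages as a whole the difference was 0.86 ± 0.33 and did not pass (edgeR, adjusted p = 0.142).

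Irf8 (ENSMUSG00000041515, chr8:120736358-120756694), which directs monocyte and dendritic cell development and is induced by interferon-gamma in macrophages, was highest in NK cells, at a median of 1354 CPM (844 to 1646, 6 tumours). Vcan+ monocytes had 252 CPM, the residual dendritic class 237 CPM, Nos2+ dendritic cells 195 CPM and Trem2+ macrophages 192 CPM, with overlapping ranges. The 17 Batf3+ dendritic cells, too few for any tumour value, had 1201 CPM when pooled. Neutrophil medians were 0 to 18.3 CPM, so the myeloid classes divided sharply on this gene. Prof_cancer had 23.1 CPM and mesenchymal cells 16.1 CPM.

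At these low levels Irf8 was higher in tumour and mesenchymal cells of BD+ICB tumours. Values were 19.3, 12.1 and 17.5 CPM in SD, 20.2, 19.9 and 19.8 in ICB and 41.4, 35.3 and 47.6 in BD+ICB, and the one BD tumour with at least 10 such cells had 31.1 CPM. BD+ICB exceeded ICB by 1.13 ± 0.17 (edgeR, adjusted p = 0.0145; 41.4 ± 6.13 against 20 ± 0.222 CPM, n = 3 each), where 0.632% of genes were called. The call was lost without the second ICB or the first BD+ICB tumour (edgeR, adjusted p up to 0.0701) and kept in the other 18 alternatives. The fit held 10 tumours, so leaving out a tumour outside it could not change the call. Summed monocyte markers in these cells were at 898 to 1096 CPM in ICB and 567 to 644 CPM in BD+ICB, and macrophage markers at 78.1 to 391.9 and 66.1 to 427.9 CPM. The part of RNA from such cells was not tested. Prof_cancer made up an average of 49.0% of these cells for ICB and 64.5% for BD+ICB, and its part was not tested. The call could not be refitted without shared barcodes; in the cells without one, pooled Irf8 was at 24.8 CPM in ICB (39 cells, 32 UMIs; exact Poisson interval 17 to 35.0) and 59.2 CPM in BD+ICB (10 cells, 18 UMIs; 35.1 to 93.6).

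In NK cells Irf8 was at 870.2 and 844 CPM in 2 SD tumours and 1481 and 1646 CPM in 2 ICB tumours (0.71 ± 0.22; edgeR, adjusted p = 0.0256; 5.35% of genes called), with 1438 and 1271 CPM in BD+ICB. With 2 tumours a group, the call was lost on leaving out any of 5 tumours. Macrophage Irf8 was at 178, 108 and 117 CPM in SD and 201, 181 and 189 in ICB, and at 165, 138 and 131 in BD and 220.4, 191 and 194 in BD+ICB. In the main fit neither ICB against SD (0.44 ± 0.16, edgeR adjusted p = 0.115) nor BD+ICB against BD (0.49 ± 0.17, edgeR adjusted p = 0.101) passed. With a replicate block the second passed (0.51, edgeR adjusted p = 0.0481). Neither pair of groups overlapped.

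Batf2 (ENSMUSG00000039699, chr19:6164397-6172476) was the rarest member, with 1135 UMIs, and 30.9% of them lay in M1 macrophages. Its median was 47.8 CPM there (0 to 91.7, 10 tumours), 38.4 in Nos2+ dendritic cells, 29.2 in Vcan+ monocytes and 0 in the T, NK, Cxcr2+ neutrophil and Hilpda+ neutrophil classes. In macrophages Batf2 was at 31.3, 2.76 and 0.638 CPM in SD and 12.3, 5.76 and 0 in BD. It was at 27.5, 16.6 and 31.6 CPM in ICB and 36.6, 46.8 and 41.6 in BD+ICB. One SD tumour was as high as the ICB tumours, and no test of Batf2 passed (0 of 38 in edgeR, 8 at an unadjusted p under 0.05, 0 in DESeq2): BD+ICB against BD gave 2.56 ± 0.97 (edgeR, adjusted p = 0.2). Nearest to the threshold was BD+ICB against ICB in Prof_cancer, with 16 and 14.5 CPM against 3.25, 5.32 and 6.18 CPM (1.78 ± 0.40; edgeR, adjusted p = 0.0511). With a replicate block this difference came to 2.07 and passed (edgeR, adjusted p = 0.024). The third BD+ICB tumour, left out with 6 cells, was at 3.29 CPM from 3 UMIs, within the ICB range.

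**Figure D4:**
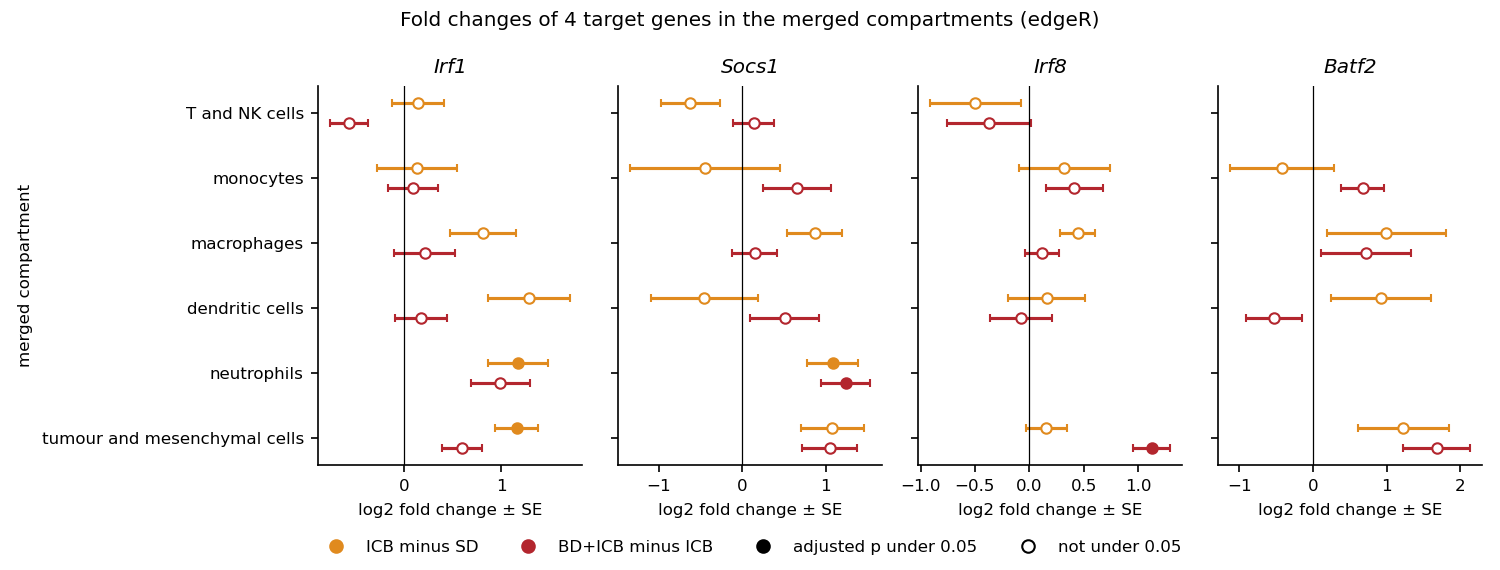
Log2 fold change with its SE (x axis) of Irf1, Socs1, Irf8 and Batf2 in 6 compartments (y axis), for ICB minus SD and for BD+ICB minus ICB, with filled points where the edgeR adjusted p was under 0.05. Filled points for ICB minus SD are Irf1 and Socs1 in neutrophils and Irf1 in tumour and mesenchymal cells, and for BD+ICB minus ICB they are Socs1 in neutrophils and Irf8 in tumour and mesenchymal cells.

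Counted over all members, the diet within the ICB library gave 1 higher and 0 lower calls in 95 class tests (0.307% of all gene tests there were called) and 3 higher and 0 lower calls in 47 compartment tests (0.439%). ICB against SD gave 6 of 86 (2.44%) and 3 of 47 (3.17%), all higher. The diet within the SD library gave 0 of 29 (0.0309% of gene tests called) and 0 of 14 (0%) (edgeR; 1 and 0 at an unadjusted p under 0.05; 0 and 0 in DESeq2), and fewer units could be tested there because BD tumours gave few cells. The difference between the diet effects of the 2 libraries gave 0 calls at every level, against 0.00515% of gene tests in classes and 0% otherwise (edgeR; 3 of 29, 1 of 14 and 0 of 9 at an unadjusted p under 0.05; 0 in DESeq2), so it was not shown that the diet acted otherwise with blockade than without it. Comparisons share groups: ICB enters both ICB against SD and BD+ICB against ICB.

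Summed over all cells of a tumour, other members were called for the diet. Ifngr1 was at 133, 162 and 157 CPM in SD and 241, 198 and 234 CPM in BD (0.73 ± 0.18; edgeR, adjusted p = 0.013), where 21.3% of all genes were called. Irf8 (0.87 ± 0.23), Jak2 (0.71 ± 0.21) and Ifngr2 (0.63 ± 0.17) were also higher in BD than in SD (edgeR, adjusted p of 0.0216, 0.0303 and 0.0228). In the ICB library Irf8 (0.80 ± 0.22; edgeR, adjusted p = 0.0488) and Ifng (2.13 ± 0.53; edgeR, adjusted p = 0.0451) were higher with the diet, where 6.48% of genes were called. The mean of both diet differences was called for Irf8 (0.83 ± 0.16), Ifngr1 (0.61 ± 0.12), Jak2 (0.54 ± 0.14) and Ifngr2 (0.42 ± 0.12), where 30.6% of genes were called. A tumour's makeup of cell types is part of each of these sums. Without the cells whose barcode occurs in both libraries, none of the diet calls over all cells was kept: Ifngr1 in BD against SD came to 0.52 (edgeR, adjusted p = 0.122) and Ifng in BD+ICB against ICB to 1.70 (edgeR, adjusted p = 0.186). Without the single proliferating cell of 115 Ifng UMIs the latter was 1.95 (edgeR, adjusted p = 0.0565). BD+ICB against BD gave Ifng 3.85 ± 0.93, Irf1 1.37 ± 0.29 and Socs1 1.15 ± 0.22 higher (edgeR, adjusted p of 0.0339, 0.0176 and 0.00975; 8.8% of genes called), all kept without the shared barcodes; Ifng was lost in 7 of 21 alternatives, and Irf1 (without BD+ICB 1) and Socs1 (without BD 3) in 1 each. ICB against SD gave Socs1 alone (0.86 ± 0.19; edgeR, adjusted p = 0.0331; 2.89% of genes called), lost in 7 of 21, while DESeq2 also called Ifng and Irf1 (adjusted p of 0.0475 and 0.00737).

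The rest of the pathway was read from 4 lists. Of 36 genes that interferon-gamma is known to induce (among them guanylate-binding proteins, immunity-related GTPases and antigen-processing genes), ICB against SD gave 39 higher and 1 lower call in 188 compartment tests, while over all genes 590 were higher and 772 lower in 43011 tests. In neutrophils, 18 of 25 tested were higher, with a median log2 difference of 1.87 against -0.01 for all genes. Gbp5 (2.83 ± 0.34), Gbp2 (2.94 ± 0.38) and Gbp7 (2.51 ± 0.36), guanylate-binding proteins that attack intracellular pathogens, had the smallest adjusted p among them. In tumour and mesenchymal cells 14 of 35 were higher (median 1.81 over the 35), with the smallest adjusted p for Psmb8 of the immunoproteasome (1.67 ± 0.13), and in macrophages 3 of 33 (median 1.02). BD+ICB against BD gave 32 higher and 0 lower calls in 58 tests (311 higher and 229 lower over all 12130 gene tests).

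For the diet within the ICB library, 154 of the 188 target values in compartments were positive. The median over all genes of a compartment was -0.013 to 0.0065. The same genes recur across compartments, and their shared direction was not tested. Of the 188 tests, 5 were called higher and 3 lower (67 higher and 122 lower over all genes). The higher ones included Cd74, the invariant chain of MHC class II, in neutrophils (1.59 ± 0.29; edgeR, adjusted p = 0.00237) and Tap1, the peptide transporter (1.16 ± 0.16), and Irgm1 (1.20 ± 0.18) in tumour and mesenchymal cells. Gbp5 in T and NK cells was lower (-1.80 ± 0.31; edgeR, adjusted p = 0.000607). In BD against SD, 0 of 58 tests passed in edgeR (6 at an unadjusted p under 0.05; 1 in DESeq2) and 13 of the values were positive.

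Of 12 further signal transducers and brakes of the pathway, 7 compartment tests were higher and 1 lower of 71 in ICB against SD (3.17% of all gene tests called). In BD+ICB against ICB, 1 was higher and 0 lower of 71 (0.439% called). Usp18, which dampens type I interferon signalling, was higher in tumour and mesenchymal cells of ICB than of SD tumours (1.94 ± 0.32; edgeR, adjusted p = 0.00795). Cish, a SOCS family member, was higher with the diet in tumour and mesenchymal cells (1.29 ± 0.20; edgeR, adjusted p = 0.0166), and Socs3 was lower with it in CD4 T cells (-1.41 ± 0.33; edgeR, adjusted p = 0.0477). The 15 inducers of Ifng, such as interleukin-12, interleukin-18 and their receptors, had no call in any class or compartment in edgeR (0 of 264 tests over all contrasts, 37 at an unadjusted p under 0.05; 1 in DESeq2). Summed over all cells, where the makeup of the tumour enters, 2 of 14 inducers were higher in BD than in SD (Runx3, 1.12 ± 0.18, and Ebi3, 0.68 ± 0.21), where 21.3% of all genes were called. In BD+ICB against ICB, 2 were higher and 1 lower (Il12rb2, 1.66 ± 0.39, Runx3, 0.65 ± 0.17, and Il15, -1.46 ± 0.29), where 6.48% of genes were called. BD+ICB exceeded BD in Il18r1 (2.21 ± 0.47) and Il12rb2 (2.18 ± 0.58), where 8.8% of genes were called. Of 8 partners of Irf8 and Batf2, Jun was lower with the diet in T and NK cells (-0.78 ± 0.20; edgeR, adjusted p = 0.0401), the one call of 40 compartment tests (0.439% of all gene tests called).

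Across tumours, Ifng over all cells (log2(CPM + 1)) was set against the log2 CPM of the 4 targets in macrophages. The libraries did not overlap in Ifng, so r was taken within each. In the 6 SD and BD tumours, Irf1 followed Ifng with r = 0.961 (exact permutation p = 0.0139, adjusted p = 0.111 over the 8 within-library relations) and rho = 0.986 (exact p = 0.00556, adjusted p = 0.0444 over the same 8); without the 2 tumours farthest from the median of Ifng, BD 2 and BD 3, r was 0.929. Socs1 had r = 0.797, Batf2 0.636 and Irf8 0.348. The Ifng values of these 6 tumours rest on 14, 7, 4, 11, 0 and 0 UMIs. In the 6 ICB and BD+ICB tumours r was 0.660 for Irf1 (exact p = 0.15), 0.578 for Socs1, 0.563 for Irf8 and 0.601 for Batf2, and without the 2 farthest tumours (BD+ICB 1 and 2) it was 0.548, 0.766, 0.720 and 0.224, so that the relation of Batf2 rests on those tumours. With all other immune classes in place of macrophages, r for Irf1 turned to -0.789 in these 6 tumours and was 0.730 in the 6 SD and BD tumours. None of the 8 values of r in macrophages passed after adjustment over the 8, and of the 8 values of rho that of Irf1 in the SD and BD tumours passed. The same 4 relations over all 12 tumours span both libraries, which did not overlap in Ifng, and were not counted in the family. Counting them would lower the adjusted p for r of Irf1 in the SD and BD tumours to 0.0333 over the 12 (exact permutation). That change comes from the small p of the added relations and adds nothing on Irf1 within the library.

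**Figure D5:**
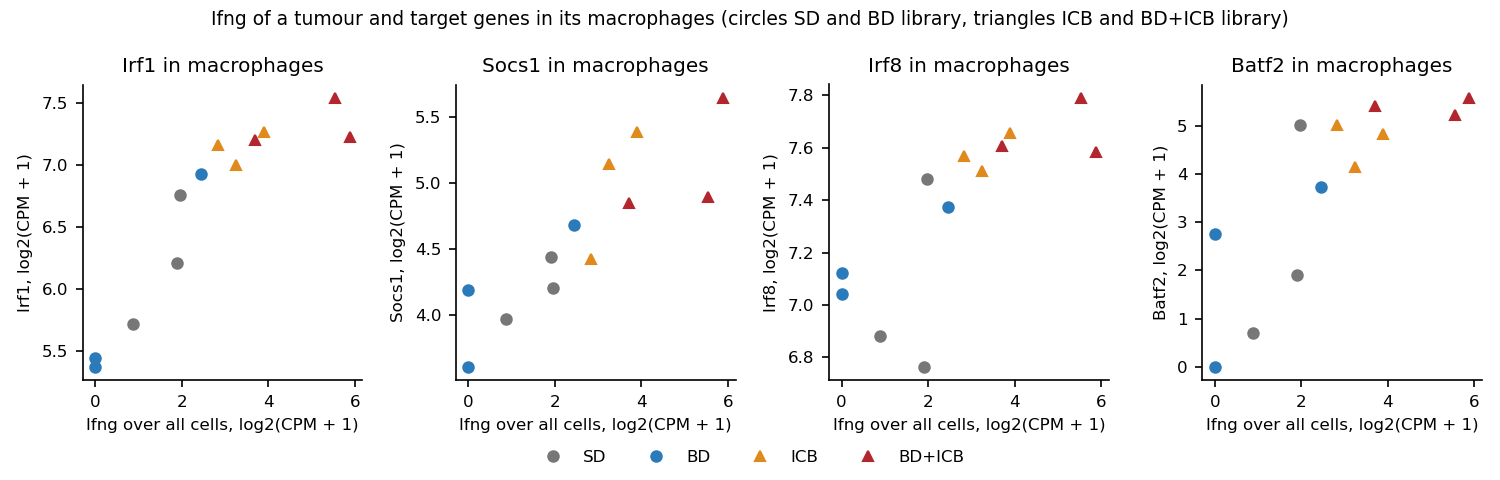
Log2 CPM of Irf1, Socs1, Irf8 and Batf2 in macrophages (y axes) against log2(CPM + 1) of Ifng over all cells of the tumour (x axis), with circles for the SD and BD library and triangles for the ICB and BD+ICB library. The 2 libraries occupy separate ranges of Ifng, and within the SD and BD library Irf1 climbs with Ifng (r = 0.961, 6 tumours).

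Over the 18 classes with a tumour value, the genes most like each member in log2(CPM + 1) of the class median were listed among 9252 genes. Nearest to Ifng were Tesc (r = 0.976), Rab19 (0.960) and Nrgn (0.958), nearest to Irf1 were Selp (0.935), Gm14010 (0.932) and Nfkbia (0.919), and nearest to Socs1 were Samd9l (0.869), 9930111J21Rik2 (0.855) and Stat2 (0.841). Slamf8 (0.957), Zfp991 (0.948) and Cd40 (0.942) were nearest to Batf2, and Crybg1 (0.889), Ccr2 (0.888) and Lpxn (0.883) to Irf8. Classes share libraries and were made from the same cells, so these values describe likeness only.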

How the data were processed

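Single-cell counts of 12 tumours were analysed. The deposited expression table holds UMI counts per gene and cell, not normalized; per the file headers the matrices were made with Cell Ranger 6.1.1, and per the submitters' processing notes R 4.1 and mm10 were used. The authors deposited a cell table with the tumour and class of each cell and its percent of mitochondrial UMIs, and hashtag counts per barcode, for which the sources used here do not say whether reads or UMIs were counted. Member rows equalled the matrices in all cells, each deposited cell's tumour was that of its top hashtag in 5749 of 5749 cells, and every deposited cell had over 500 hashtag counts. No doublet caller was run.

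Counts were summed per tumour and class, per merged compartment and over all cells (at least 10 cells), and fitted with edgeR 4.0.16 (TMM, filterByExpr, robust quasi-likelihood, 4 groups in 1 fit), with Benjamini-Hochberg adjustment over all genes of a unit and a threshold of 0.05; DESeq2 1.42.0 was an alternative. Shares of cells with a UMI were taken after thinning to 1000 UMIs. Exact permutation tests and correlations used scipy 1.17.1; log scales of CPM used a pseudocount of 1 for Ifng and for likeness. The scripts were tested on simulated data. Promoters were RefSeq's for GRCm38.p6, the assembly that mm10 names. Other alternatives were RLE factors, no filter on low counts, 30 cells per tumour, cells of at least 1000 UMIs, a stricter hashtag rule, no shared barcodes, 1 library, a replicate block and each tumour left out. Some runs leave a unit's counts unchanged, such as leaving out a tumour with under 10 of its cells. These runs are counted among the alternatives, and a call is kept in them by construction.

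The members and lists were chosen with earlier results of these data known. All members are named; of each list, up to 4 genes per contrast with the smallest adjusted p could be named, and for likeness the 3 highest r. One gene of the list of signal transducers and brakes is not reported here, and the counts of that list leave it out.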

Additional observations from a re-analysis of the deposited data

Results flagged for a closer look

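Ifng counts were also present in droplets that could be assigned to a tumour by hashtag but are not among the deposited cells. In the first BD+ICB tumour these droplets held 11.7 CPM of Ifng (97 UMIs in 306 droplets), all 97 in the 74 droplets whose nearest deposited cells were T or NK cells. In the second BD+ICB tumour they held 5.82 CPM (20 UMIs, 193 droplets), and in the first BD tumour 1.18 CPM (8 UMIs, 7 of them in 40 T and NK droplets). These levels exceed the highest SD value of 0.373 CPM (1 UMI) and the 3-count limit of their own tumour. The third BD+ICB tumour, at 0.323 CPM (4 UMIs), lay below the SD value, the third BD tumour had 1.76 CPM from 3 UMIs, which is its limit, and the second BD tumour had none. The ICB tumours had at most 0.290 CPM. T and NK droplets numbered 2, 1 and 3 in the SD tumours, 40, 2 and 6 in BD, 2, 2 and 0 in ICB and 74, 43 and 8 in BD+ICB. The number of such droplets is part of each of these levels. The deposited cells all have over 500 hashtag counts, and what set the remaining droplets apart was not tested. No group has more than 3 tumours, so single tumours were not tested for lying apart from their group.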

How the results depend on the processing

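Of 31 calls of members, 2 (Irf1 and Socs1 in neutrophils, BD+ICB against BD) passed under all alternatives run and 29 were lost under 1 or more, with no change of sign. The calls in Prof_cancer and that of Irf8 in tumour and mesenchymal cells could not be refitted without shared barcodes, as too few cells remained. Counts of member tests past the threshold moved as follows. Per class, the diet gave 1 call, which became 2 with RLE factors, 4 with no filter on low counts, 0 with at least 30 cells, 0 without shared barcodes, 2 within the library only, 2 after own demultiplexing and 1 to 3 on leaving out a tumour. Blockade gave 7 per class, 18 with no filter, 2 with 30 cells and 4 to 12 on leaving out a tumour. Per compartment, the diet gave 3, 0 with 30 cells and 0 to 4 on leaving out a tumour; blockade gave 6, 14 with no filter, 3 with the stricter hashtag rule and 2 to 10 on leaving out a tumour. Over all cells, the diet gave 10, 6 with no filter, 0 without shared barcodes, 4 within the library, 0 after own demultiplexing and 5 to 8 on leaving out a tumour; blockade gave 4, 11 without shared barcodes and 1 to 4 on leaving out a tumour. The cause was not tested. Own demultiplexing (9472 droplets, classes carried over from deposited cells; 83.7% of re-assigned deposited cells kept their class) and leaving out the cell with the most Ifng were chosen after seeing the data.

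The mean diet difference in Ifng was 9.35 to 20.9 CPM on leaving out a tumour, and that in the share of T and NK cells with Ifng 0.265 to 2.74 points; the share reversed to -0.381 without thinning and to -0.715 after own demultiplexing. Ifng in BD against SD, -0.666 CPM, ran from -2.16 (without BD 1) to 0.0787 (without BD 2 or BD 3) on leaving out a tumour and turned to 0.110 after own demultiplexing, and the share in BD against SD to 1.22 after thinning to 500 UMIs. The correlation of Irf1 with Ifng in the ICB library was -0.789 with all other immune classes in place of macrophages.

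The labels do not say that a replicate number marks anything shared. Same-numbered tumours of different groups had correlations of -0.156 to 0.467 in their deviations, 12 of 18 over 0.1, against -0.544 to 0.293 for other pairs. Of the 12 tumours, 10 correlated best with one of their own number. Not every pair was over 0.1, and the main tests treat the tumours as unpaired. Whether the numbers mark a pairing was not settled. With a replicate block, the diet gave 5 calls per class in place of 1, adding Ifng in CD8 T cells (1.21), Irf8 in the residual dendritic class (2.10) and Socs1 (1.00) and Batf2 (2.07) in Prof_cancer, all BD+ICB against ICB. Blockade calls gained with the block included Ifng in T and NK cells (ICB against SD, 1.16, edgeR adjusted p = 0.0241). In macrophages they were Irf1 in both blockade contrasts and Irf8 in BD+ICB against BD. Socs1 was gained in Trem2+ macrophages (BD+ICB against BD) and in tumour and mesenchymal cells (ICB against SD). Main calls lost with the block are counted among the alternatives above. Depth limits BD most, with 38 T and NK cells in all.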
